A study of Caenorhabditis elegans with 16 samples.

Results

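A small set of piRNA loci in adult male C. elegans was read almost exclusively on the strand opposite to the annotated piRNA, and is described here in males with and without the piRNA-binding protein PRG-1. The set holds the piRNAdb names with at least 2 antisense reads over 6 libraries and more antisense than sense reads over the same libraries. It comprised 127 of 15913 names, or 0.798%. The members were thus chosen by their antisense and sense read totals, and the excess of antisense over sense reads is a description and not a finding. The split of the antisense reads between genotypes was not used in the choice, since the totals run over both.

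The study asked how piRNA levels differ between wild type and prg-1 mutant males, and small RNA was sequenced from whole animals. The 6 libraries used here are wild type replicates 1 to 3 and replicates 1 to 3 of a prg-1 null mutant, a strain without functional PRG-1. All males were picked at mid-L4, between 20 and 30 per sample, kept at 25 °C and collected 24 hours later. Further libraries of the study (wild type replicates 4 and 5, null replicates 4 and 5, and RNase and Delta PAZ-domain mutants) were not used here. The labels name no allele and give no separate origin of the replicates; the tests therefore weigh genotype against a spread between samples that may be in part technical.

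piRNAs of this worm, the 21U-RNAs, are made from short transcripts of their own small genes, most of which lie in clusters on chromosome IV, and are bound by the Piwi Argonaute PRG-1 in the germline. A piRNA guides PRG-1 to transcripts that pair with it, and RNA-dependent RNA polymerases can then make secondary small RNAs, the 22G-RNAs, antisense to the target transcript. Such secondary RNAs carry a 5′ triphosphate, and the RNA of these libraries was treated with a pyrophosphatase that makes such ends clonable. On a target that pairs with a piRNA, both the piRNA and these secondary RNAs are antisense to the target. By its strand alone, a read antisense to a piRNA name is no 21U-RNA of that name. The counts give neither the length nor the first base of a read, so the kind of RNA behind the antisense reads was not determined.

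The names are those of piRNAdb, taken as the table pairs them with its rows, and none of the 127 could be matched to an entry of the annotation at hand, which uses 21ur names. No position, sequence or neighbouring gene is given for a member for that reason. For orientation, the Ensembl annotation of WBcel235 lists 15363 piRNA genes, 95.8% of them on chromosome IV. On the opposite strand, 3.45% of these genes have an annotated exon of a gene that is no piRNA gene. Overlaps with piRNA genes on the opposite strand were not counted. Names with alike sequences may share reads, and the sources used here do not say how such reads were assigned.

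Genome-mapped reads numbered 1029620 to 1860189 in the wild type libraries and 1185732 to 2288967 in the null libraries. As a check of the labels, 21U-only reads numbered 1003 to 4105 in the wild type libraries and 17 to 39 in the null libraries. Levels are given in reads per 1000000 genome-mapped reads (RPM). One read was worth 0.437 RPM in the deepest library and 0.971 RPM in the shallowest, so a level of a few RPM rests on a handful of reads.

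Antisense reads fell on few piRNA loci, and most of these loci had no sense read, as was true of piRNA loci in general. Over the 6 libraries 197 names had an antisense read and 1444 had a sense read, and 25 had both. A sense read was thus found at 12.7% of the names with an antisense read, against 9.07% of all names. Sense reads in 1 library and antisense reads in another met on a name 0 to 1.92 times as often as under independence, against 48.5 to 128 times for antisense reads in both. The rule sets the strands side by side name by name, and these ratios do not show that the sense and antisense columns share 1 row order, which is taken from the table as deposited. Of the 135 names with at least 2 antisense reads, 127 had more antisense than sense reads and are the members, and 8 did not. The members held 885 of the 973 antisense reads at piRNA loci, and 13 of 11756 sense reads. No sense read was found at 116 members, 1 was found at 9 members and 2 were found at cel-piR-2974 and cel-piR-8075. Of the 13 sense reads 11 came from wild type and 2 from null libraries, which is too few to compare.

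**Figure D1:**
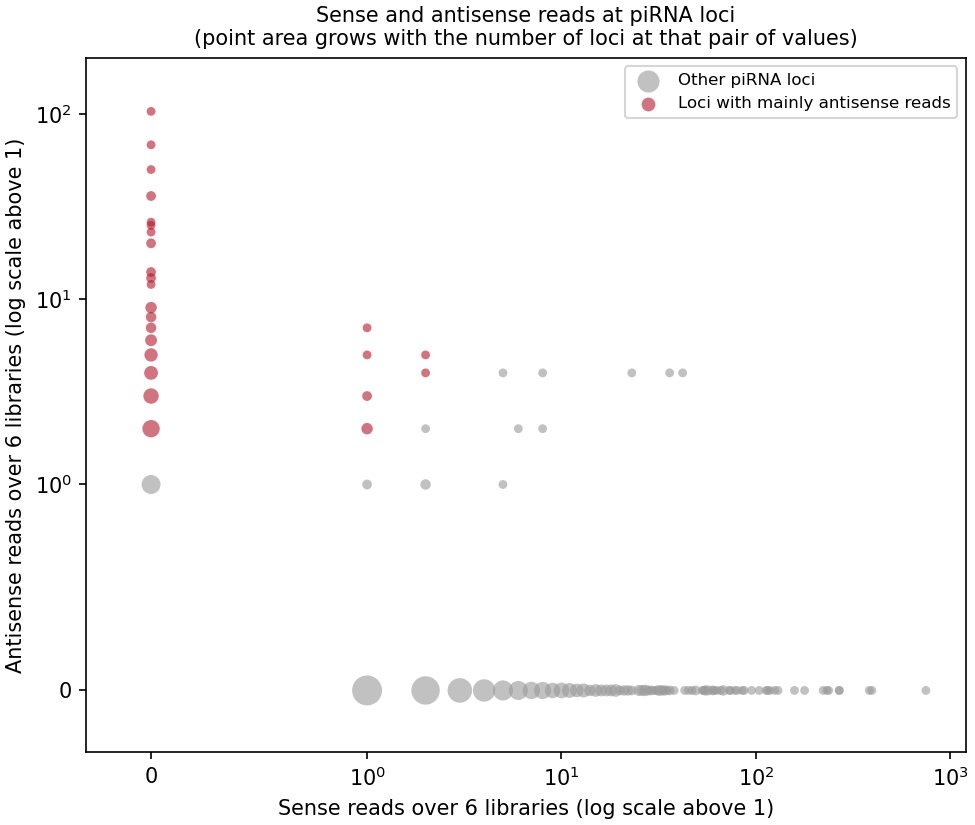
Antisense reads (vertical axis) against sense reads (horizontal axis) of each piRNA name with a read, summed over 6 libraries, both axes on a log scale above 1 read; red points are the 127 loci with mainly antisense reads and grey points all others. The points lie along the axes: the members reach 103 antisense reads with at most 2 sense reads, while the other loci reach 749 sense reads with at most 4 antisense reads.

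Many names lay at the read minimum of the rule and few at its strand balance. Just outside on the read minimum were 62 names with 1 antisense read, and just inside were 43 members with 2. Of the 62 names, 56 had no sense read, and the others also failed the strand balance. Just outside on the strand balance lay cel-piR-446 with 2 reads on each strand and cel-piR-4784 with 4 antisense and 5 sense reads, both named after their values were seen. On the inside of the balance were 5 members with 2 antisense reads and 1 sense read each. The names outside the set with most antisense reads had 4 each, beside 5 sense reads at cel-piR-4784, 8 at cel-piR-3559, 23 at cel-piR-5810, 36 at cel-piR-1249 and 42 at cel-piR-8767. Among names with at least 10 reads on both strands together, the smallest excess of antisense reads was 12 (cel-piR-1259), followed by 13 (cel-piR-12077 and cel-piR-1856). The smallest excess of sense reads among such names outside the set was 4 (cel-piR-3559, 8 sense and 4 antisense reads), followed by 6 (cel-piR-2397) and 10 (cel-piR-11568, no antisense read).

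The summed antisense level of the members overlapped between genotypes. It was 83.1, 117 and 60.2 RPM in wild type replicates 1 to 3, with a mean of 86.7 ± 28.4 RPM (SD, n = 3). In null replicates 1 to 3 it was 87.7, 108 and 92.2 RPM, with a mean of 95.9 ± 10.6 RPM (n = 3). All null values lay between the lowest and the highest wild type value, and the ratio of the means was 1.11. In whole animals a change in the number of germ cells and a change in RNA per cell cannot be told apart. No p is given for this sum, since the members were chosen with results of these libraries known.

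The ratio depended on what the reads were scaled to. It was 1.43 with all sequenced reads as the denominator. Against all sense and antisense reads at piRNA loci it was 7.06; sense reads at piRNA loci numbered 345 to 606 in null libraries and 1649 to 5959 in wild type libraries. Antisense reads at all piRNA loci were 4.01, 4.09 and 4.02% of the locus reads in wild type replicates 1 to 3, and 23.8, 30.1 and 27.3% in null replicates 1 to 3.

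The members' share of all antisense reads at piRNA loci was high in every library. It was lowest in wild type replicate 2 (85.4%, Wilson 95% interval 80.6 to 89.2%) and highest in null replicate 1 (96.3%, 90.9 to 98.6%). Intervals and limits given here account for counting error alone. They take each read as a separate molecule, which does not hold for amplified reads, so they may be too narrow. The rule used these counts, so the share is a description.

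Most members were read in 1 genotype only. Reads in both genotypes were found at 29 members, in wild type only at 53 and in the null only at 45. The 29 shared members held 391 of the 885 antisense reads (44.2%), the wild type-only members 198 reads (22.4%) and the null-only members 296 reads (33.4%). For comparison, of the 1036 other names with at least 2 sense reads, 819 (79.1%) had sense reads in wild type only, 75 (7.24%) in the null only and 142 in both. The members' shares were 41.7%, 35.4% and 22.8%. No test of that difference was made, since loci are not replicates.

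**Figure D2:**
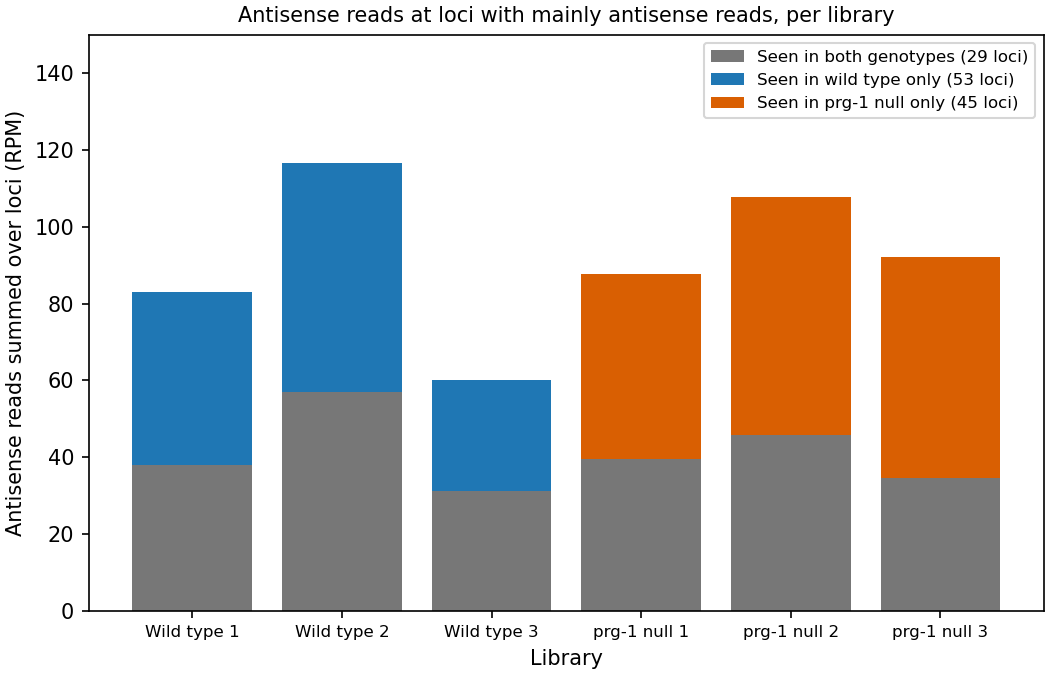
Antisense reads of the 127 members in RPM (vertical axis) in each of the 6 libraries, stacked by where the members were seen: both genotypes (29 loci), wild type only (53) and null only (45). Members seen in both genotypes gave 31.1 to 57.0 RPM in wild type libraries and 34.5 to 45.8 RPM in null libraries, and members of 1 genotype made up the rest, 29.1 to 59.7 RPM and 48.1 to 62.1 RPM.

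Most of the members read in 1 genotype were also read in 1 library only, namely 46 of the 53 wild type-only and 34 of the 45 null-only members. These 80 members (63.0% of the set) had 2 to 7 reads each, with a median of 2.5, and together held 26.4% of the members' reads. Among the other names with at least 2 sense reads, 51.5% were seen in a single library. Of the 80 members, 13, 26 and 7 were seen only in wild type replicates 1, 2 and 3, and 8, 15 and 11 only in null replicates 1, 2 and 3. Wild type replicate 2, which had the most antisense reads (254), accounted for the largest number of them. Counting only members read in at least 2 libraries, 7 were seen in wild type only, 11 in the null only and 29 in both.

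The number of members shared by a pair of libraries did not separate the genotypes. Of the 127 members, 34, 55 and 19 were detected in wild type replicates 1 to 3 and 26, 43 and 40 in null replicates 1 to 3. Pairs of wild type libraries shared 7 to 16 members, pairs of null libraries 12 to 19, and pairs of 1 wild type and 1 null library 5 to 15. The 3 ranges overlap.

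A few loci carried much of the antisense signal. The 15 members with at least 10 antisense reads held 473 of the 885 reads (53.4%), and none of them had a sense read. The first 5 alone held 33.1%. Read in at least 4 libraries were 11 members, 9 of them among these 15. The other 2, named after their values were seen, were cel-piR-10459 with 9 reads (5, 0 and 0 in wild type, 1, 2 and 1 in the null) and cel-piR-1027 with 9 reads (3, 4 and 0 in wild type, 1, 0 and 1 in the null).

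cel-piR-10081 had reads in all 6 libraries. Its antisense level was 6.33, 8.06 and 11.7 RPM in wild type replicates 1 to 3 and 11, 4.64 and 5.24 RPM in null replicates 1 to 3. The groups overlapped. The log2 fold change was -0.33 (SE 0.88, edgeR adjusted p = 0.742), and its sign turned with other scalings (0.28 with TMM factors, 0.11 with all sequenced reads and 2.21 with piRNA-locus reads, where edgeR called it higher at an adjusted p = 0.0111). Pooled per genotype, 33 null reads against 35 wild type reads gave a depth-scaled ratio of 0.753, with an exact 95% interval of 0.454 to 1.25.

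cel-piR-10827 was the only other member with reads in all 6 libraries. Its wild type levels were 1.58, 4.84 and 1.94 RPM and its null levels 6.75, 9.28 and 5.68 RPM. Every null library lay above every wild type library, yet the difference was not called (log2 fold change 1.29, SE 0.96, edgeR adjusted p = 0.217). Over the alternatives tried the adjusted p ran from 1.1e-05 to 0.496, and the locus was called higher with TMM factors (2.17, adjusted p = 0.0231), with piRNA-locus reads as library size (3.99) and without wild type replicate 2 (1.99, adjusted p = 0.0389).

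At the other 7 members with at least 10 reads and reads in both genotypes, the libraries of the genotypes overlapped. The wild type levels of cel-piR-11737 were 1.58, 5.91 and 0 RPM and its null levels 8.43, 3.48 and 3.06 RPM, a log2 fold change of 0.82 (SE 1.00). For cel-piR-4496 the wild type levels were 0.791, 0 and 5.83 RPM and the null levels 2.53, 3.48 and 3.06 RPM, with a log2 fold change of 0.57 (SE 1.14; -0.077 without wild type replicate 2). In both, 1 wild type library had no read while every null library had some, and both were called higher with piRNA-locus reads as library size (edgeR adjusted p = 0.000353 and 0.0115).

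The wild type levels of cel-piR-7771 were 0.791, 6.99 and 0 RPM and its null levels 0, 4.06 and 1.75 RPM, a log2 fold change of -0.46 (SE 1.14; 2.04 without wild type replicate 2). For cel-piR-4609 the wild type levels were 2.37, 3.76 and 2.91 RPM and the null levels 0, 0 and 3.06 RPM, with a log2 fold change of -1.35 (SE 1.26). This locus was read in every wild type library and in null replicate 3 alone. cel-piR-12922, cel-piR-7196 and cel-piR-12077, with 14, 14 and 13 reads, had log2 fold changes of -0.02, 0.47 and 0.45, the first of which turned sign under 7 alternatives. The adjusted p-values of these 7 loci in edgeR's quasi-likelihood test ran from 0.338 (cel-piR-4609) to 0.988 (cel-piR-12922).

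**Figure D3:**
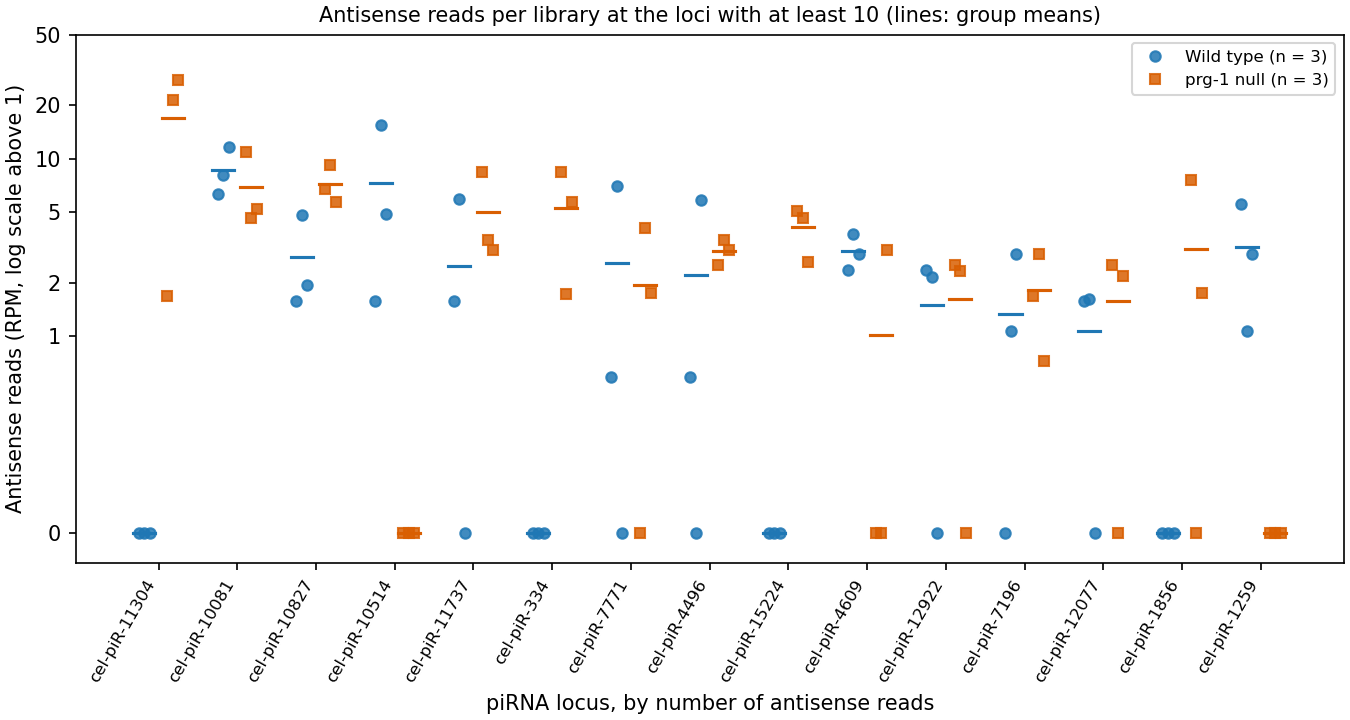
Antisense RPM (vertical axis, log scale above 1) of the 15 members with at least 10 antisense reads in 3 wild type libraries (blue circles) and 3 prg-1 null libraries (orange squares), lines marking group means. For cel-piR-11304, cel-piR-334, cel-piR-15224 and cel-piR-1856 all wild type points sit at 0, and for cel-piR-10514 and cel-piR-1259 all null points do, while both groups have reads at the other 9 loci.

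Of the 15 members with at least 10 reads, 4 were read antisense in null males and in no wild type library. They reached the minimum for testing through null libraries alone and so had to differ. Their p-values, also those under the alternatives, are a description and no support for a difference. cel-piR-11304, the member with most antisense reads, had 0 reads in each wild type library and 2, 37 and 64 reads in null replicates 1 to 3, or 1.69, 21.5 and 28.0 RPM. The lowest null library was far below the other two. It supplied 19.9% of the members' antisense reads in null replicate 2 and 30.3% in null replicate 3. A count of 0 over the wild type libraries allows up to 0.722 RPM (3 counts over the group). The pooled null level was 27.4 times that limit. This ratio of a pooled level to the limit of the other genotype, called the bound below, leaves out the counting error of the reads found. The true fold may be lower. The edgeR adjusted p was 3.8e-06, and it was at most 0.0400 over the 15 alternatives in which the locus was tested.

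cel-piR-334 had no wild type read and 8.43, 1.74 and 5.68 RPM in null replicates 1 to 3 (10, 3 and 13 reads). Its bound was 6.92-fold (edgeR adjusted p = 0.00117). cel-piR-15224 had no wild type read and 5.06, 4.64 and 2.62 RPM in the null (6, 8 and 6 reads), with a bound of 5.33-fold (edgeR adjusted p = 0.00438). Its 3 null libraries were the closest together among these 4 loci. cel-piR-1856 had 9 reads in null replicate 1, none in null replicate 2 and 4 in null replicate 3, with a bound of 3.46-fold (edgeR adjusted p = 0.0244). Its call ended without wild type replicate 2 (adjusted p = 0.150) or 3 (0.142), with DESeq2 (0.165), without the read minimum (0.163) and with antisense rows only (0.0655), and a null library without reads overlaps the wild type libraries. Without null replicate 1 its 4 remaining reads gave a bound of 1.38-fold, and without null replicate 1 or 3 the locus did not reach the minimum for testing. Leaving out wild type replicate 2, the deepest of its group, raised the limit of a count of 0 and lowered the bounds to 15.1-fold for cel-piR-11304, 3.82-fold for cel-piR-334, 2.94-fold for cel-piR-15224 and 1.91-fold for cel-piR-1856.

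2 loci showed the opposite pattern and reached the minimum for testing through wild type libraries alone, so their p-values too are a description. cel-piR-10514 was at 1.58, 15.6 and 4.86 RPM in wild type replicates 1 to 3 (2, 29 and 5 reads) and had no read in any null library. Wild type replicate 2 held most of these reads. The null group allows up to 0.577 RPM, and the pooled wild type level gave a bound of 15-fold (edgeR adjusted p = 0.000113). That bound was 5.29-fold without wild type replicate 2 and 8.41-fold without null replicate 3. Without wild type replicate 3 the adjusted p was 0.0504, and without wild type replicate 2 the locus did not reach the minimum for testing. With piRNA-locus reads as library size the adjusted p was 0.0593.

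cel-piR-1259 was at 5.54, 1.08 and 2.91 RPM in wild type (7, 2 and 3 reads) and had no null read, with a bound of 5.01-fold (edgeR adjusted p = 0.0166). Its call was lost without wild type replicate 2 (adjusted p = 0.0518), null replicate 2 (0.0511) or null replicate 3 (0.0598), with piRNA-locus reads as library size (0.184), without the read minimum (0.110) and with antisense rows only (0.0526), and the locus was not tested without wild type replicate 1 or 3. Its bound was 3.00-fold without wild type replicate 1, 7.56-fold without wild type replicate 2 and 2.80-fold without null replicate 3.

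In all, 6 of the 127 members were called between genotypes, 4 higher and 2 lower in the null, and 9 of the 15 tested were not called. The test ran over 213 rows with at least 10 reads, the sense and antisense reads of a name being separate rows. All 15 antisense rows tested were members, so no antisense row outside the set gives a background: 26.7% of antisense rows were called higher and 13.3% lower. Over sense and antisense rows together 2.82% were called higher and 67.1% lower, and of the 198 sense rows 1.01% and 71.2%. The 6 called members reached the 10-read minimum through 1 genotype alone and so had to differ. For that reason neither their number nor their p-values are offered as support for a difference. With piRNA-locus reads as library size, which shifts the median of all rows tested by 0.94 on the log2 scale, 8 members were called higher and 0 lower (1 lower at an unadjusted p under 0.05). TMM factors shifted that median by 0.42 and gave 5 higher and 2 lower, and all sequenced reads shifted it by 0.19 with 4 and 2; DESeq2 gave 3 and 2.

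Without the 10-read minimum, the groups did not overlap for 6 members. Null libraries all lay above wild type libraries at cel-piR-11304, cel-piR-10827, cel-piR-334 and cel-piR-15224, and all below them at cel-piR-10514 and cel-piR-1259. These are 2.96% and 1.48% of the 135 antisense rows with at least 2 reads. Among the 1038 sense rows with at least 2 reads the shares were 0.482% above and 13.4% below.

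**Figure D4:**
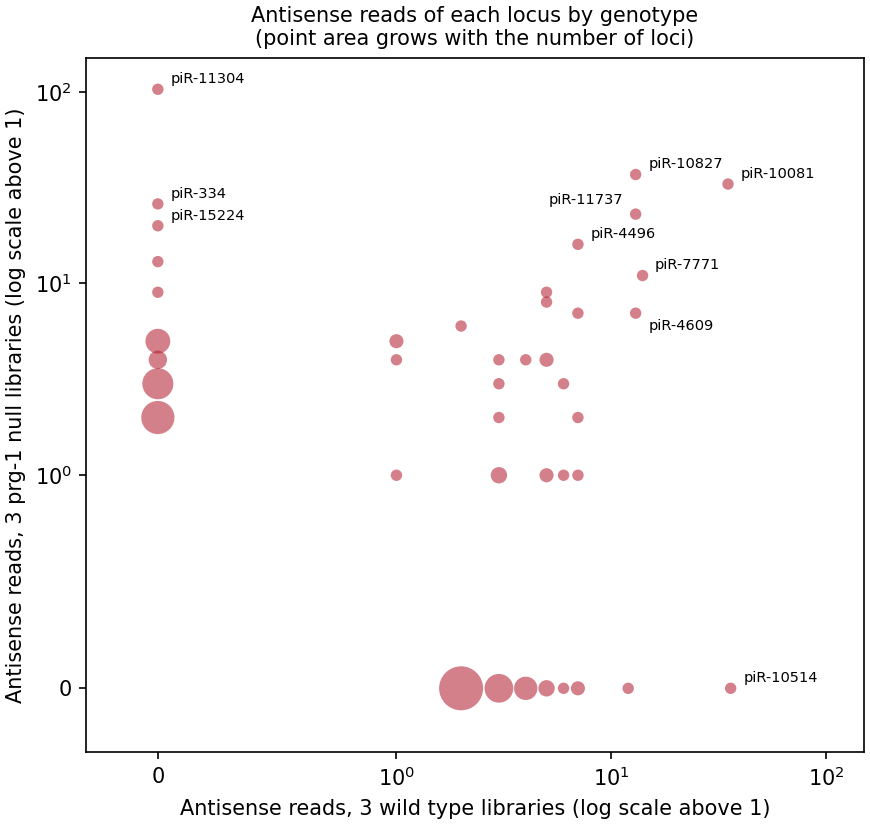
Antisense reads of each of the 127 members summed over 3 null libraries (vertical axis) against the sum over 3 wild type libraries (horizontal axis), both on a log scale above 1 read; point area grows with the number of loci and members with at least 20 reads are labelled. Loci on the vertical axis were read in the null only (45, up to 103 reads at cel-piR-11304), those on the horizontal axis in wild type only (53, up to 36 reads at cel-piR-10514), and the other 29 lie between.

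The remaining 112 members had 2 to 9 antisense reads each and were not tested. Of the 31 members with 5 to 9 reads, 16 were read in both genotypes, 6 in wild type only and 9 in the null only, and they had 99 reads in each genotype. The 38 members with 3 or 4 reads had 70 wild type and 58 null reads, and 3 of them were seen in both genotypes. The 43 members with 2 reads had 55 wild type and 31 null reads, and 1 was seen in both.

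The pooled levels of sparse and abundant members differed in direction, with limits on both. Pooled over libraries, the summed level of the 112 sparse members was 53.9 RPM for wild type and 36.2 RPM for the null, and that of the 15 abundant members 38.5 and 60.2 RPM. Per library the abundant members summed to 24.5, 51.1 and 33.0 RPM in wild type replicates 1 to 3. In null replicates 1 to 3 they summed to 58.2, 58.0 and 62.9 RPM, without overlap. Of these 15, 4 passed the 10-read minimum through null libraries alone and 2 through wild type alone, so this is a description. Without cel-piR-11304 the other 14 abundant members were at 38.5 RPM for wild type and 40.4 RPM for the null. Their null libraries then summed to 56.5, 36.5 and 35.0 RPM and overlapped wild type. The sparse members summed to 58.6, 65.6 and 27.2 RPM in wild type replicates 1 to 3 and to 29.5, 49.9 and 29.3 RPM in null replicates 1 to 3, and the genotypes overlapped, wild type replicate 3 being the lowest of the 6. Without cel-piR-11304 the ratio of the summed levels of all members, null over wild type, went from 1.11 to 0.910. With wild type replicate 2 left out it was 1.34.

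Members read in a single library could be represented by several reads there. cel-piR-12324 and cel-piR-11361 had 7 reads each in wild type replicate 1 and none elsewhere, and cel-piR-12293 had 6 reads in wild type replicate 2 alone. A further 7 members had 5 reads in 1 library, from wild type and null libraries alike. At this depth a count of 0 in the other libraries did not exclude an antisense level of these loci below its limit, 1.31 to 2.91 RPM per library.

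The antisense pattern of cel-piR-7771 over the 6 libraries was the most like that of the summed other members among the 15 loci with at least 10 reads, with Pearson's r of 0.83. It was followed by cel-piR-10827 (0.53) and cel-piR-12922 (0.49). These values describe 6 libraries that share their genotype in groups of 3, and carry no test.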

How the data were processed

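The submitters' processing notes name cutadapt 3.7 and FastQC 0.12.0; no aligner, mismatch limit or treatment of reads with several matches is stated in the sources at hand. The authors deposited raw read counts, per the file headers, for each piRNAdb name and strand, for each 100 kb bin of ce11 and as totals per library. Only the 6 libraries that define the members were used, and 20 other columns of the piRNA counts were not. As a check that these 6 share a row order, names read in both of 2 libraries were 7.30 to 36.6 times (sense) and 48.5 to 128 times (antisense) as frequent as under independence; across strands the ratio was 0 to 1.92. Strand totals, RPM and limits were computed with Python 3.11.15. Sense and antisense counts of all names with at least 10 reads over 6 libraries entered 1 edgeR 4.0.16 fit (R 4.3.3, quasi-likelihood F test) with genome-mapped reads as library size; calls had a Benjamini-Hochberg adjusted p below 0.05. Each standard error is the size of the log2 fold change divided by the root of F. The test was tried on simulated data. DESeq2 1.42.0 was an alternative. Libraries of 1 genotype were distinct (chi-square per degree of freedom of bin counts at least 41.2). Named loci are the members with at least 10 antisense reads or a call, those nearest the rule's edge, the others with most antisense reads, single-library members with most reads and the 3 most alike in pattern. The members and lists were chosen with earlier results of these data known.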

Additional observations from a re-analysis of the deposited data

How the results depend on the processing

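Depth limits most members: 112 of 127 were below the 10-read minimum. The number of members was 46 with at least 5 and 15 with at least 10 antisense reads, 79 by wild type and 67 by null libraries alone, 121 with antisense above 2 times sense, 127 by mean RPM and 95 to 119 with 1 library left out. The summed ratio of null to wild type was 7.06 with piRNA-locus reads as denominator and 0.960 to 1.34 with 1 library left out. Members called numbered 3 to 5 with 1 library left out (3 to 4 higher, 0 to 2 lower), with none called lower by edgeR without wild type replicate 2 or 3 (1 each at an unadjusted p under 0.05). With piRNA-locus reads 8 were called higher and 0 lower. With at least 10 reads in 3 libraries 1 member (cel-piR-10081) could be tested and 0 were called by edgeR (0 at an unadjusted p under 0.05). 1 was called lower without the read filter and with antisense rows only. Rows called in all went from 149 to 57 with piRNA-locus reads, 19 with the stricter filter, 90 without the filter, 4 with antisense rows only, and 66 to 123 with 1 library left out. Deviations of same-numbered libraries correlated by 0.102, -0.033 and 0.119, and the numbers were not taken to pair the samples. With replicate number as a block 2 members were called, 1 higher (cel-piR-11304, adjusted p = 0.0387) and 1 lower (cel-piR-10514, 0.0466), of 57 rows in all, while cel-piR-334 (0.0760), cel-piR-15224 (0.107), cel-piR-1856 (0.237) and cel-piR-1259 (0.185) were not, and wild type replicate 2 correlated best with null replicate 3.

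Log2 fold changes of loci not called turned sign as follows: cel-piR-10081 to 0.28 with TMM factors, 0.11 with total reads and 2.21 with piRNA-locus reads (there called); cel-piR-7771 to 0.66 with TMM factors and 2.36 with piRNA-locus reads (-1.41 to 2.04 with 1 library left out); cel-piR-4496 to -0.086 with DESeq2 (-0.077 to 2.91); cel-piR-4609 to 1.27 with piRNA-locus reads; cel-piR-12922 to 0.57 with TMM factors, 0.29 with total reads, 2.58 with piRNA-locus reads and 0.090 with the block (-0.55 to 0.60). With 1 library left out cel-piR-7196 ran from -0.083 to 1.48 and cel-piR-12077 from -0.045 to 1.01. Of 219 values of named loci under the alternatives, 178 kept direction and side of the threshold, 17 lost a call, 6 gained one and 19 turned sign, 1 of which is also among the 6; the cause was not tested.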
